A study of Mus musculus with 18 samples.

Results

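CD45+ leukocytes that had left an inflamed joint and reached its draining lymph node were compared with CD45+ leukocytes of a joint-draining node here called steady state. The source label of the latter gives them as migrated from joint to node. The 6 libraries, 3 from each condition, were taken from a series of 18 and were chosen by their GEO labels, and all autosomal genes were read in them. Kaede mice, whose cells carry a fluorescent protein that light switches from green to red, were the strain of both groups, and the study used age- and sex-matched mice. In the inflamed group the mice had received in vitro polarised OT-II Th1 cells, which recognise ovalbumin, were immunised with 100 μg OVA in Complete Freund's Adjuvant, and were challenged 10 days later in the footpad with 100 μg heat-aggregated ovalbumin (HAO). Joints were exposed to light so that cells present there turned red, and red CD45+ cells were later sorted from the node. The steady-state group carries "PBS" and "KG" in its titles. The labels do not explain "KG", and the sort gate of these 3 libraries, together with whether their donors received OT-II cells and OVA, is therefore not settled. The study's protocol does describe mice given the same cells and immunisation and then PBS in the footpad, but the labels do not say that these are the mice sampled. Each library came from a pool of mice, so that the spread between libraries is that between pools, and the sorted population is a mixture of cell types. In such bulk samples, fewer cells of a type and less RNA per cell cannot be told apart.

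A node that drains inflamed tissue receives dendritic cells and lymphocytes through afferent lymph. Dendritic cells that leave a tissue switch to a mature programme: they raise CCR7, which guides them along the CCL19 and CCL21 gradient, reorganise their actin with fascin, and display costimulatory ligands and cytokines to T cells. T and B cells activated by antigen then divide, and B cells that become plasmablasts switch to the transcription factor Blimp-1 and secrete class-switched antibody. Naive lymphocytes recirculate, and leave nodes with the sphingosine-1-phosphate receptor S1PR1.

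The 6 libraries held 37500168 to 43814403 counts assigned to genes, and 3 counts corresponded to 0.0672 to 0.0779 CPM, the usual expression unit in which a gene's count is taken relative to its library's total, here after TMM scaling. Steady-state libraries correlated with each other at 0.987 to 0.993 and inflamed ones at 0.981 to 0.99, over log CPM of autosomal genes. The first principal component carried 86.7% of the variance and set the groups apart, with inflamed replicate 1 at 42.94, inflamed replicates 2 and 3 at 62.75 and 65.54, and the steady-state libraries at -56.28 to -58.19. Reads from 4 Y-linked genes were found in 1 inflamed library (replicate 2, 219 CPM) and 1 steady-state library (replicate 1, 341 CPM), against 0.708 to 1.21 CPM in the other 4, so each group had 1 library of 3 with such reads. Mitochondrial transcripts made up 1.407% to 1.961% of counts in inflamed and 2.797% to 3.138% in steady-state libraries, a difference whose part in the results was not tested. Ptprc, which encodes CD45 and was looked at after its values were seen, stood at 1836, 1821 and 1704 CPM in inflamed replicates 1, 2 and 3 and at 2678, 2516 and 2089.5 CPM in steady-state replicates 1, 2 and 3. Markers of node stroma were near the counting limit, with summed levels of 2.11, 2.98 and 3.48 CPM in inflamed and 1.46, 1.48 and 1.24 CPM in steady-state libraries over 7 genes tested, of which edgeR and DESeq2 called 0 and 3 had an unadjusted p under 0.05 by edgeR.

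Among 16532 autosomal genes tested, 2065 were higher in the inflamed migrants (12.5%) and 574 were lower (3.47%), at an adjusted p below 0.001 and an absolute log2 fold change above 1 (edgeR quasi-likelihood test, Benjamini-Hochberg adjustment). The counts given for gene lists below are to be read against these shares. Genes called higher had a median log2 change of 2.54 and reached 10.78, and those called lower a median of -1.56 and a minimum of -7.25. The log2 change passed 5 for 302 of the genes called higher, while it fell below -3 for 37 of the genes called lower. In 213 of the genes called higher every steady-state library held 3 counts or fewer, so that their folds are bounds, and the same held of inflamed libraries for 11 of the genes called lower. The median over all genes tested was -0.0177. In the 2639 genes called, the 3 inflamed and the 3 steady-state values did not overlap in any case. The same held for 9392 of all 16532 genes tested, called or not, so lack of overlap alone is common here.

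**Figure D1:**
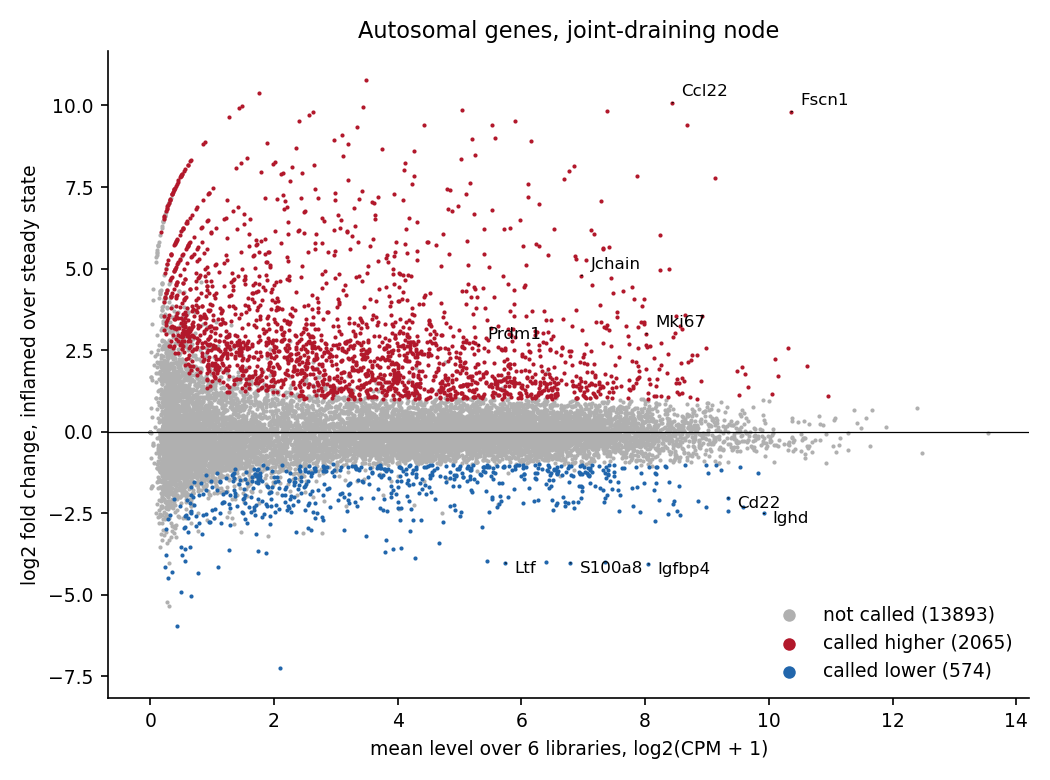
Log2 fold change (inflamed over steady state, y axis) of each autosomal gene against its mean level over the 6 joint node libraries (x axis, log2 of CPM + 1), with 2065 genes called higher in red, 574 called lower in blue and those not called in grey. The genes called higher spread to far larger changes than those called lower, with Ccl22 and Fscn1 near 10 and the neutrophil genes S100a8 and Ltf near -4.

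The best supported increases by p came from genes with a small spread. Osbpl3, an oxysterol-binding protein, measured 125, 134 and 134 CPM in inflamed replicates 1, 2 and 3 and 16.6, 14.3 and 15.7 CPM in steady state, a 8.43-fold difference (log2 3.07 ± 0.09 SE, adjusted p = 2.62e-10 by edgeR). H2-M2, a nonclassical MHC class I gene, rose from 0.118, 0.234 and 0.214 CPM to 48.8, 60.025 and 80.1 CPM (log2 8.37 ± 0.25 SE). S100a4, a calcium-binding protein of motile cells, went from 30.0, 25.0 and 34.8 CPM to 319.6, 366 and 346 CPM (log2 3.52 ± 0.13 SE). In each of these 3 genes every inflamed library lay far above all steady-state libraries, with a wider spread in H2-M2 than in Osbpl3 and S100a4. Among the other genes of that rank were Pla2g4f, a phospholipase A2 (log2 5.55 ± 0.20), H1f0, a linker histone (log2 3.16 ± 0.12), Espl1, the protease separase that releases sister chromatids (log2 3.53 ± 0.14), Cc2d2a, a component of the ciliary transition zone (log2 7.01 ± 0.29), Tmem150c (log2 9.53 ± 0.39), the carboxypeptidase inhibitor Lxn (log2 2.76 ± 0.12) and the cadherin-related gene Cdhr1 (log2 6.47 ± 0.28).

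Mature migratory dendritic cell genes rose almost as a block. Of 17 tested, 16 were called higher, against 12.5% of all genes, and the median log2 change was 4.01. Fscn1, which encodes the actin-bundling protein fascin, stood at 1271, 3247 and 3364 CPM in inflamed replicates 1, 2 and 3 and at 2.90, 2.98 and 2.93 CPM in steady-state replicates 1, 2 and 3, a 894-fold difference (log2 9.80 ± 0.41 SE, adjusted p = 3.95e-09 by edgeR). Ccl22, a chemokine that attracts CCR4+ T cells, measured 342, 699 and 1030.5 CPM against 0.706, 0.701 and 0.49987 CPM (log2 10.08 ± 0.45 SE). Ccl17, which binds the same receptor, measured 4.9985, 7.53 and 13.7 CPM in inflamed libraries, and since all steady-state libraries held 3 counts or fewer (0.0706, 0.0519 and 0.0476 CPM) the mean was at least 112-fold higher, taking 3 counts in the shallowest steady-state library as the limit. No steady-state library came near an inflamed one for any of the 3 genes, and in each gene inflamed replicate 1 was the lowest inflamed library.

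The remaining members moved the same way. Cacnb3, a calcium channel subunit, measured 574, 1325 and 1428 CPM against 4.57, 5.66 and 5.07 CPM in steady state (log2 7.77 ± 0.36). Socs2, a suppressor of cytokine signalling, measured 149, 307 and 364 CPM against 4.31, 3.50 and 3.50 CPM (log2 6.18 ± 0.31). Relb, the NF-κB subunit of mature dendritic cells, measured 297, 562 and 528 CPM against 65.1, 71.4 and 86.2 CPM (log2 2.64 ± 0.22). Anxa3, Nudt17, Serpinb6b, Marcks, Tmem123, Tnfrsf9, Cd80, Cd86, Cd40 and Cd200 were also higher, from log2 1.47 for Cd40 to 7.19 for Nudt17. The exception was Ccr7 itself, with 743, 1260.00 and 1815 CPM in inflamed and 479.99, 646 and 819 CPM in steady-state libraries, where inflamed replicate 1 lay between steady-state replicates 2 and 3 (log2 0.97 ± 0.27 SE, adjusted p = 0.00943 by edgeR), and which naive lymphocytes also use. Over the 17 genes the summed level was 5506, 11480.00 and 13300.00 CPM in inflamed and 1099, 1243 and 1453 CPM in steady-state libraries. Inflamed replicate 1 held the least of these transcripts in its group, and without it the list's median was 4.28 and Ccr7 passed both thresholds (log2 1.22, adjusted p = 0.000556 by edgeR).

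**Figure D2:**
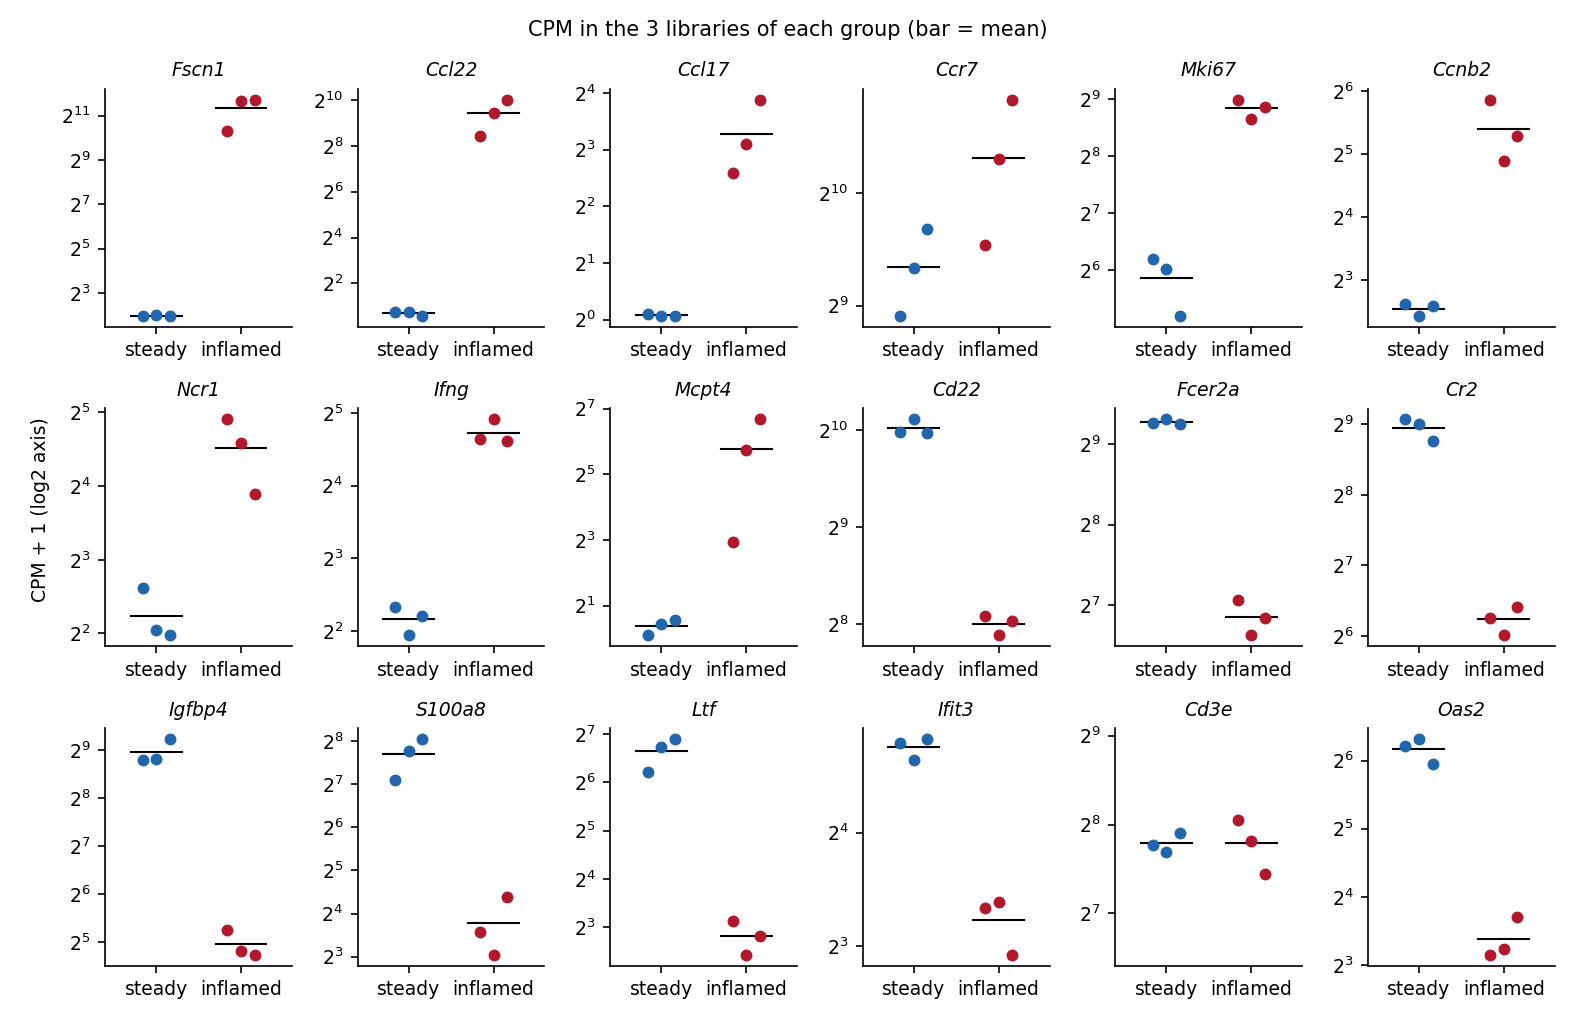
CPM + 1 on a log2 axis of 18 genes in each library of the joint node, with steady state in blue, inflamed in red and the mean as a bar. Each panel has its own range. Dots of a group are replicates 1, 2 and 3 from left to right. Fscn1, Ccl22 and Ccl17 stand far above steady state, inflamed replicate 1 is the lowest inflamed library for the 3 genes and for Mcpt4, Cd3e and Ccr7 overlap between groups, and Cd22, Fcer2a, Cr2, Igfbp4, S100a8, Ltf, Ifit3 and Oas2 are lower in all inflamed libraries.

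Genes of dendritic cell identity moved less uniformly. Flt3, the receptor that sustains dendritic cell development, measured 166, 377 and 389 CPM in inflamed replicates 1, 2 and 3 against 6.10, 6.98 and 5.62 CPM in steady state (log2 5.64 ± 0.30), and Zbtb46, a transcription factor of conventional dendritic cells, 34.6, 76.4 and 87.4 CPM against 2.12, 2.05 and 1.59 CPM (log2 5.10 ± 0.30). Itgax, encoding CD11c, rose from 16.3, 16.9 and 13.7 CPM to 82.8, 102 and 80.6 CPM (log2 2.50 ± 0.13), and here inflamed replicate 1 was not the lowest. Of 10 genes of conventional type 1 dendritic cells, 5 were higher and 1 lower. Batf3, needed for their development, measured 32.3, 64.6 and 63.7 CPM against 0.518, 0.389 and 0.49987 CPM (log2 6.82 ± 0.32), while Irf8, which plasmacytoid and B cells also express, stood at 194, 288 and 312 CPM against 284, 251 and 267 CPM (log2 -0.01 ± 0.18, adjusted p = 0.956 by edgeR). The defining receptors Xcr1 (log2 1.66 ± 0.27) and Clec9a (log2 2.35 ± 0.35) were called higher at levels under 10 CPM, calls that were lost when only the joint node groups were fitted (adjusted p = 0.0014 and 0.00176 by edgeR), and without steady-state replicate 1 the list had 3 higher calls. Of 8 conventional type 2 genes, 3 were higher: Mgl2, a C-type lectin (log2 2.88 ± 0.37), Cd209d (log2 2.30 ± 0.35) and Sirpa (log2 1.49 ± 0.29), and the list had 1 higher call without steady-state replicate 2 or 3. Of 3 Langerhans cell genes tested, only Cldn1, a tight junction claudin, was called (log2 4.52 ± 0.34). Ciita, the master regulator of MHC class II, was lower (174, 196 and 198 CPM against 388, 458 and 345 CPM, log2 -1.07 ± 0.16).

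Many secreted signals were higher as well. Of 27 chemokines tested, 11 were higher and none lower, with a median log2 change of 1.76. Ccl22 and Ccl17 among them were also counted with the mature migratory dendritic cell genes. Cxcl16, a membrane-bound ligand of CXCR6, measured 261, 545 and 578 CPM in inflamed replicates 1, 2 and 3 against 2.68, 1.61 and 1.67 CPM (log2 7.85 ± 0.35), and Cx3cl1, fractalkine, 10.0, 14.4 and 18.4 CPM against 0.0942, 0.156 and 0.167 CPM (log2 6.65 ± 0.29). Ccl5, a chemokine of effector lymphocytes, rose from 79.3, 62.3 and 89.4 CPM to 823, 1040.2 and 814 CPM (log2 3.53 ± 0.18), and its 3 inflamed libraries were close together. Both Cxcl9 and Cxcl10, interferon-γ-induced ligands of CXCR3, were higher, by log2 3.27 ± 0.27 and 1.76 ± 0.22. Il12b, the shared p40 subunit of IL-12 and IL-23, measured 9.88, 22.961 and 41.5 CPM in inflamed libraries and stayed within 3 counts in every steady-state library (0.0706, 0.0779 and 0.0238 CPM), so that its mean was at least 318-fold higher. Il15, which supports NK and memory T cells, measured 16.049, 29.6 and 37.1 CPM against 0.989, 1.30 and 1.26 CPM (log2 4.54 ± 0.33), and its presenting chain Il15ra 65.8, 152 and 177 CPM against 10.2, 10.7 and 9.64 CPM (log2 3.69 ± 0.29). Of 44 interleukins and receptors of activated cells, 21 were higher and 2 lower; the lower ones were Il12a, the partner of Il12b in IL-12 (1.77, 1.43 and 1.76 CPM against 12.8, 6.75 and 8.57 CPM, log2 -2.50 ± 0.29), and the IL-6 receptor Il6ra (log2 -1.05 ± 0.10), and the list had 1 lower call without steady-state replicate 2.

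Costimulatory and coinhibitory ligands were higher in 12 of 18 tested and lower in none (median log2 change 1.79). Cd80, Cd86 and Cd40 among them were also counted with the mature migratory dendritic cell genes. Cd80 measured 15.2, 30.9 and 40.3 CPM in inflamed replicates 1, 2 and 3 against 1.62, 2.00 and 1.74 CPM (log2 4.01 ± 0.29), Tnfsf4, the OX40 ligand, 2.82, 3.87 and 8.37 CPM against 0.424, 0.363 and 0.49987 CPM (log2 3.53 ± 0.44), and Tnfsf9, the 4-1BB ligand, 9.64, 12.9 and 17.1 CPM against 1.65, 1.51 and 1.86 CPM (log2 2.98 ± 0.23). Cd70 was at least 13.9-fold higher, with steady-state libraries at 3 counts or fewer. Both ligands of PD-1 were among the 12: Cd274 went from 81.5, 91.9 and 82.6 CPM to 188, 413 and 522 CPM (log2 2.13 ± 0.26) and Pdcd1lg2 from 9.44, 7.24 and 8.33 CPM to 19.5, 42.7 and 42.1 CPM (log2 2.06 ± 0.25). Of 16 genes listed for tolerance and negative regulation by dendritic cells, 10 were higher and none lower, a list that shares Socs2, Cd200 and the PD-1 ligands with the lists above. Its members Aire, which drives expression of tissue antigens (log2 3.29 ± 0.20), and Aldh1a2, which makes retinoic acid (log2 6.18 ± 0.51), were higher, and Ido2, which degrades tryptophan, was at least 8.85-fold higher. Tnfrsf11a, the receptor RANK, measured 42.4, 94.1 and 108 CPM against 1.25, 1.04 and 0.976 CPM (log2 6.22 ± 0.34), and of 21 TNF receptor genes 11 were higher and 2, the B cell receptors for BAFF and APRIL Tnfrsf13c and Tnfrsf13b, were lower. The NF-κB list gave 5 higher of 23, against 12.5% of all genes, among them Nfkbia, the inhibitor IκBα (log2 1.495 ± 0.21), Traf1 (log2 2.0999 ± 0.18) and Tnip3 (log2 3.77 ± 0.29).

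Genes with the largest fitted changes at 10 CPM or more in the higher group were Mab21l3, Ccl22, Sod3, Oprd1, Synpo2 and Fscn1. Mab21l3 held 10.6, 23.9 and 27.1 CPM in inflamed libraries and was at least 263-fold higher, and Sod3, the extracellular superoxide dismutase, held 4.46, 25.1 and 29.7 CPM and was at least 254-fold higher. Oprd1, the delta opioid receptor, measured 34.0, 77.2 and 79.5 CPM against 0.0942, 0 and 0.0952 CPM (log2 9.86 ± 0.49), and Synpo2, an actin-associated protein, 148, 424 and 427 CPM against 0.588, 0.337 and 0.167 CPM (log2 9.82 ± 0.51). All 4 were lowest in inflamed replicate 1 within the inflamed group, the order shown by Fscn1 and Ccl22. Cd63, a tetraspanin of late endosomes, followed it too (79.7, 177 and 196 CPM against 2.38, 2.96 and 3.40 CPM, log2 5.69 ± 0.31).

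**Figure D3:**
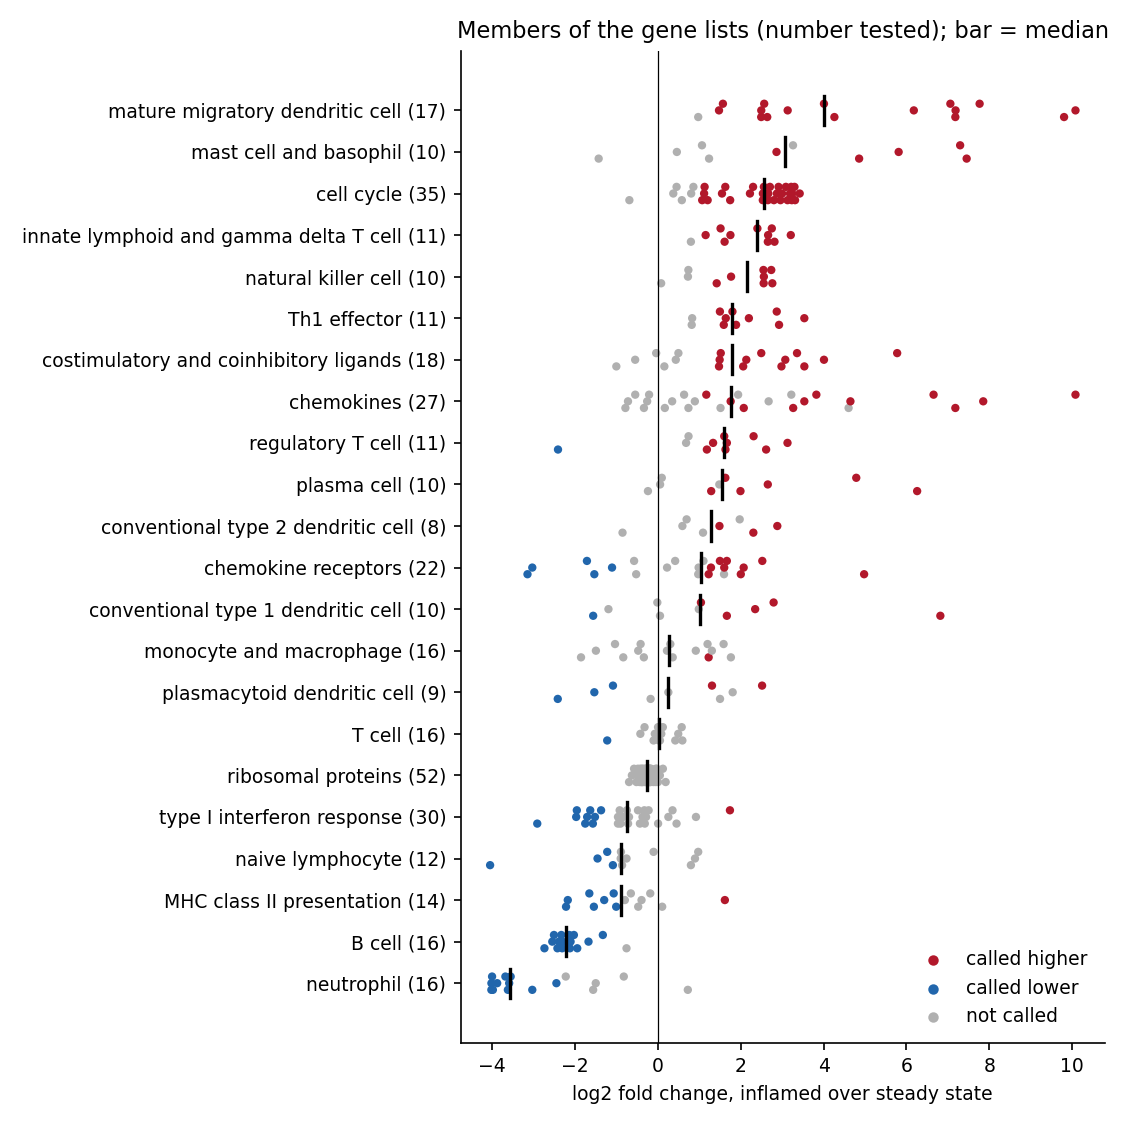
Log2 fold change (inflamed over steady state) of each tested member of 22 gene lists, ordered by their medians (black bars), with the number tested in brackets; red dots are called higher, blue called lower and grey not called. The mature migratory dendritic cell list has the highest median (4.01), the B cell and neutrophil lists the lowest (-2.22 and -3.57), and T cell and ribosomal protein genes lie near 0.

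Cell division genes were higher in 29 of 35 tested and lower in none (median log2 change 2.56). Mki67, a marker of dividing cells, measured 508, 401 and 466 CPM in inflamed replicates 1, 2 and 3 against 72.4, 64.0 and 35.8 CPM (log2 3.00 ± 0.26). Ccnb2, cyclin B2, which drives entry into mitosis, measured 57.1, 28.5 and 38.0 CPM against 5.13, 4.39 and 4.9987 CPM (log2 3.09 ± 0.25), and its kinase Cdk1 36.2, 24.4 and 32.5 CPM against 3.67, 2.85 and 3.67 CPM (log2 3.19 ± 0.23). For all 3, inflamed replicate 1 was the highest library, the opposite of the dendritic cell genes. Among other members, Ube2c, which helps degrade cyclins (log2 3.42 ± 0.23), Birc5, survivin (log2 3.31 ± 0.25), Hmmr (log2 3.30 ± 0.25) and Cenpf, a kinetochore protein (log2 3.24 ± 0.27), changed the most.

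Because these genes moved together, their promoters were read for the CCAAT box, to which the factor NF-Y binds. In RefSeq windows from 250 bases before to 50 after the start site (GRCm38.p6), the letters CCAAT, on either strand, were present for 22 of 29 tested cell cycle genes with a window (75.9%), for 19 of the 24 called higher (79.2%), and for 42% of 11159 autosomal genes tested and 41% of all 25748 autosomal genes with a window. The windows of Ccnb2 (chr9:70421505-70421804, minus strand) and Cdk1 (chr10:69352863-69353162, minus strand) are shown 5′ to 3′ as examples of genes with several matches, with CCAAT or its reverse complement in capitals.
Ccnb2: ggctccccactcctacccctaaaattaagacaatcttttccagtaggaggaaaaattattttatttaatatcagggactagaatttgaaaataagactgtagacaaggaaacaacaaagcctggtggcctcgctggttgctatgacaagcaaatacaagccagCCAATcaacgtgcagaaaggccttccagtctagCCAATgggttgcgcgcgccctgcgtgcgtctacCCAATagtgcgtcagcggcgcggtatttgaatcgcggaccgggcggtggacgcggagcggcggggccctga
Cdk1: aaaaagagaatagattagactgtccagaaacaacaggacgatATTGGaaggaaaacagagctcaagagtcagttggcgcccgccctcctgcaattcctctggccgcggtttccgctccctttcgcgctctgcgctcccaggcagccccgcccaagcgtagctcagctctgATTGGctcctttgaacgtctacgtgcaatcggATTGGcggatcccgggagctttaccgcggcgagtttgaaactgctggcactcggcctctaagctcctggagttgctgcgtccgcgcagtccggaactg
Each holds 3 matches, in Cdk1 as the reverse complement. These letters are common, and a match describes the window and not a bound site.

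T cell identity genes did not separate the groups, but effector genes did. Of 16 T cell genes 1 was called, the naive-associated factor Lef1, which was lower and lost its call when only the joint node groups were fitted, and the median log2 change was 0.03. Cd3e stood at 265, 224 and 173 CPM in inflamed replicates 1, 2 and 3 and 218, 205 and 238 CPM in steady state (log2 0.00 ± 0.13 SE), with overlapping groups. Of 11 Th1 effector genes, in contrast, 9 were higher and none lower. Ifng, the Th1 cytokine, measured 24.1, 29.1 and 23.5 CPM against 4.03, 2.83 and 3.62 CPM (log2 2.87 ± 0.19), Tbx21, the Th1 master regulator T-bet, 62.4, 58.8 and 39.9 CPM against 18.6, 14.9 and 19.995 CPM (log2 1.59 ± 0.19), and Il12rb2, the signalling chain of the IL-12 receptor, 14.3, 17.7 and 15.5 CPM against 2.50, 2.36 and 1.40 CPM (log2 2.92 ± 0.21). Of 11 autosomal regulatory T cell genes 8 were higher, led by Il2ra, the IL-2 receptor α chain (256, 305 and 357 CPM against 36.4, 37.0 and 31.5 CPM, log2 3.13 ± 0.14), Tigit (log2 2.61 ± 0.18) and Tnfrsf4, OX40 (log2 2.31 ± 0.15), all of which activated T cells also express. Fewer regulatory T cell genes, 4, were called higher when all 18 libraries entered the fit. The other way went Gpr83, a receptor enriched in regulatory T cells (1.46, 1.5019 and 1.44 CPM against 8.19, 7.81 and 7.43 CPM, log2 -2.41 ± 0.15). Il21, the cytokine of follicular helper T cells, rose from 0.847, 0.571 and 0.428 CPM to 11.2, 7.43 and 8.76 CPM (log2 3.88 ± 0.27), and Pdcd1, PD-1, by log2 1.70 ± 0.16, whereas Cxcr5, which guides T and B cells into follicles, fell (72.4, 63.2 and 80.2 CPM against 227, 238 and 243 CPM, log2 -1.71 ± 0.17).

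Innate lymphoid, γδ T and NK cell genes were higher as well. Of 11 innate lymphoid and γδ T cell genes 10 were called (median log2 change 2.40), including Sox13, a factor of γδ T cells (41.0, 23.3 and 21.6 CPM in inflamed replicates 1, 2 and 3 against 2.82, 3.97 and 5.40 CPM, log2 2.81 ± 0.29), Il17a (17.5, 13.9 and 24.7 CPM against 1.27, 2.39 and 2.40 CPM, log2 3.21 ± 0.41), Trdc, the constant region of the δ chain (174, 104 and 84.8 CPM against 41.8, 38.8 and 46.5 CPM, log2 1.51 ± 0.21), and Zbtb16, PLZF (log2 2.66 ± 0.33). Of 10 NK cell genes 7 were called (median log2 change 2.16). Ncr1, the activating receptor NKp46, measured 29.0, 23.1 and 13.8 CPM against 5.11, 3.14 and 2.93 CPM (log2 2.56 ± 0.29), Klrb1c, NK1.1, 53.2, 45.0 and 25.4 CPM against 8.29, 5.40 and 7.43 CPM (log2 2.55 ± 0.25), and Gzma, granzyme A, 102, 62.4 and 45.9 CPM against 12.6, 10.2 and 13.1 CPM (log2 2.55 ± 0.25). Klra8 and Klra4 belong to the Ly49 family of near-identical receptors, so the share of reads each received is uncertain. In all 3 named NK genes inflamed replicate 1 was the highest library and replicate 3 the lowest, with every inflamed value above every steady-state value.

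Plasma cell genes were mostly higher and B cell genes lower. Of 10 plasma cell genes 6 were higher and none lower. Prdm1, Blimp-1, which activated T cells and dendritic cells also express, went from 10.2, 10.8 and 10.6 CPM to 58.9, 69.3 and 71.2 CPM (log2 2.65 ± 0.11 SE, adjusted p = 3.95e-09 by edgeR). Jchain, which joins secreted IgM and IgA, measured 186, 183 and 351 CPM in inflamed replicates 1, 2 and 3 against 8.29, 7.68 and 10.1 CPM (log2 4.79 ± 0.35). Tnfrsf17, the survival receptor BCMA, was at least 11.4-fold higher, with 3 counts or fewer in steady-state libraries. Xbp1, the factor of the secretory programme, stood at 86.6, 103 and 126 CPM against 102, 88.7 and 105 CPM (log2 0.09 ± 0.14), and Mzb1 at 30.2, 30.1 and 52.1 CPM against 32.6, 31.7 and 44.1 CPM (log2 0.05 ± 0.21), with overlapping groups in both. Without steady-state replicate 2, the plasma cell list had 3 higher calls.

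The immunoglobulin constant genes, taken as the 13 genes tested of that annotation class and looked at after their values were seen, split by isotype: 6 were higher, 3 lower and 4 not called. Ighd, the constant region of IgD on naive B cells, measured 335, 239 and 292 CPM in inflamed replicates 1, 2 and 3 against 1532, 1664 and 1721 CPM, 5.67-fold lower (log2 -2.50 ± 0.19 SE). The γ chains of class-switched antibody went the other way: Ighg1 measured 284, 493 and 551 CPM against 52.6, 38.7 and 36.8 CPM (log2 3.37 ± 0.40), Ighg2b 152, 417 and 462 CPM against 34.1, 22.7 and 24.7 CPM (log2 3.66 ± 0.48) and Ighg2c 178, 538 and 663 CPM against 42.4, 25.9 and 27.9 CPM (log2 3.84 ± 0.48). For the related genes Ighg2b and Ighg2c, inflamed replicate 1 was lower than replicates 2 and 3 but above all steady-state libraries. How many of their reads could not be placed on 1 gene is not known. Ighg3 (log2 3.44 ± 0.49), Ighe of IgE (log2 4.79 ± 0.49) and Igha of IgA (log2 4.76 ± 0.61) were also higher. Ighm, the constant region of IgM, was not called, at 2618, 2512 and 3813 CPM against 2493, 2345 and 2664 CPM (log2 0.25 ± 0.20, adjusted p = 0.302 by edgeR), nor was the light chain Igkc (log2 0.37 ± 0.29). The λ constant genes Iglc2 and Iglc3 were lower, by log2 -1.34 and -1.49.

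**Figure D4:**
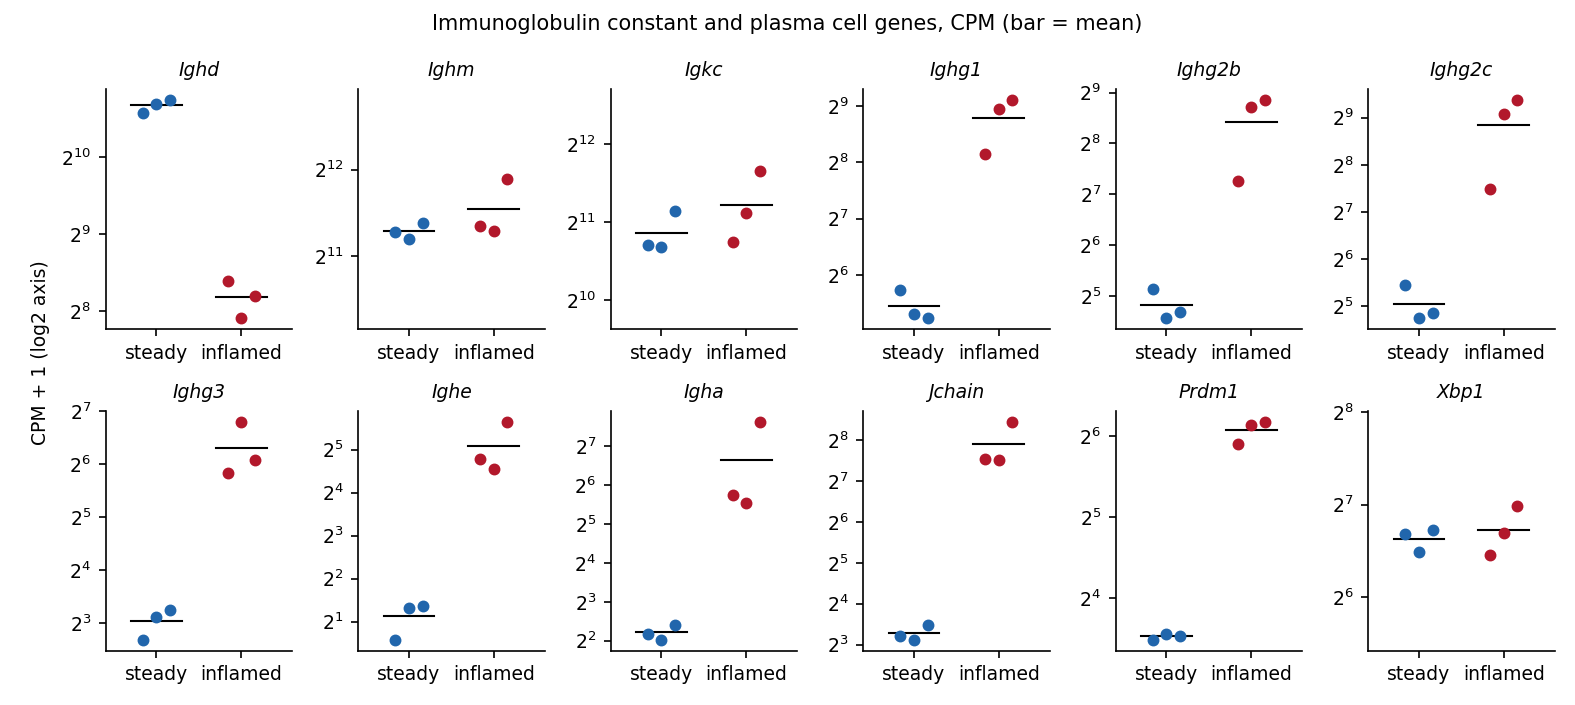
CPM + 1 on a log2 axis of immunoglobulin constant genes and of Jchain, Prdm1 and Xbp1 in each joint node library (steady state in blue, inflamed in red, replicates 1 to 3 from left to right, mean as a bar; each panel has its own range). Ighd is lower in all inflamed libraries, the switched isotypes, Jchain and Prdm1 are higher in all of them, and Ighm, Igkc and Xbp1 overlap.

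B cell genes were lower in 15 of 16 tested, against 3.47% of all genes, and higher in none (median log2 change -2.22). Cd79a, a signalling chain of the B cell receptor, measured 296, 217 and 253 CPM in inflamed replicates 1, 2 and 3 against 1153, 1162 and 1488 CPM, 4.96-fold lower (log2 -2.31 ± 0.22 SE, adjusted p = 1.46e-06 by edgeR). Cr2, complement receptor 2, measured 75.6, 63.3 and 83.6 CPM against 537, 515 and 434 CPM (log2 -2.74 ± 0.20), and Fcer2a, CD23 of follicular B cells, 132, 97.9 and 114 CPM against 611, 633 and 606 CPM (log2 -2.43 ± 0.22). Ms4a1 (CD20), Fcmr (the IgM receptor) and Cd72 fell by 2.55, 2.51 and 1.95 on the log2 scale. The summed level of the 16 genes was 2030.00, 1622 and 1918 CPM in inflamed and 7872, 8079 and 8411 CPM in steady-state libraries, with little spread within either group. The one gene not called, Spib, is shared with plasmacytoid dendritic cells (log2 -0.76 ± 0.15, adjusted p = 0.000777 by edgeR). Other genes of the best supported decreases were Ralgps2 (log2 -2.29 ± 0.13), the transcriptional cofactor Lmo2 (log2 -2.12 ± 0.12), Ffar1, a fatty acid receptor (log2 -2.31 ± 0.14), Kmo of tryptophan breakdown (log2 -1.44 ± 0.10), the long noncoding RNA Gm15675, which overlaps Gm15674 on the other strand (log2 -2.46 ± 0.13), Gm37691, which overlaps Lamb3 on the same strand (log2 -1.64 ± 0.10), Amigo2 (log2 -2.44 ± 0.12), Snx30, a sorting nexin (log2 -1.67 ± 0.10), Trim30b (log2 -2.57 ± 0.16) and Zfp318, the zinc finger protein needed for IgD expression (107, 98.6 and 102 CPM against 365, 371 and 279 CPM, log2 -1.72 ± 0.11).

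MHC class II presentation genes were lower in 7 of 14 tested and higher in 1. The lower ones were H2-Ob, an inhibitor of peptide loading in B cells (143, 98.4 and 129 CPM in inflamed replicates 1, 2 and 3 against 551, 572 and 598 CPM, log2 -2.22 ± 0.17), its partner H2-Oa, the loading chaperones H2-DMa, H2-DMb1 and H2-DMb2 (log2 -1.66 ± 0.15 for the last), Ciita, and March1, a ubiquitin ligase that removes MHC II from the surface (log2 -2.18 ± 0.16). Ifi30, a thiol reductase of antigen processing, was higher (364, 649 and 639.96 CPM against 181, 163 and 196 CPM, log2 1.62 ± 0.21). The peptide-presenting chain H2-Aa was not called, at 1579, 2107 and 2124 CPM against 2251, 2379 and 3013 CPM (log2 -0.40 ± 0.18, adjusted p = 0.0783 by edgeR), nor was the invariant chain Cd74 (log2 -0.65 ± 0.20).

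Naive lymphocyte genes were lower in 4 of 12, against 3.47% of all genes, and higher in none. When only the joint node groups or all 18 libraries were fitted, 2 were lower. Without inflamed replicate 1, 6 were lower and 2 higher. Igfbp4, an IGF-binding protein of naive T cells, had the smallest p of all genes called lower: 37.2, 27.4 and 25.7 CPM in inflamed replicates 1, 2 and 3 against 444, 451 and 603 CPM, 16.6-fold lower (log2 -4.05 ± 0.17 SE). Lef1 (log2 -1.22 ± 0.17), Foxp1, which maintains quiescence (log2 -1.09 ± 0.09), and Dapl1 (log2 -1.46 ± 0.25) were also lower. Of the genes of node exit, S1pr1 measured 484, 354 and 338 CPM against 612, 759 and 821 CPM (log2 -0.90 ± 0.17 SE, adjusted p = 0.000658 by edgeR), which missed the fold threshold and passed it without inflamed replicate 1 (log2 -1.11) or steady-state replicate 1 (log2 -1.01). Klf2, the transcription factor that switches it on, measured 299, 319 and 169.7 CPM against 455, 419 and 588 CPM (log2 -0.89 ± 0.21). In both genes every inflamed library was below every steady-state library. Among 12 egress and positioning receptors 2 were higher, a share near the 12.5% of all genes, S1pr2 (log2 1.48 ± 0.14) and S1pr5, the receptor of NK cells (log2 2.01 ± 0.36). Only 1 receptor was called higher when any joint node library other than inflamed replicate 3 was left out.

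Chemokine receptors split between 9 higher and 5 lower of 22 tested, against 12.5% and 3.47% of all genes. Ccr2, the receptor of inflammatory monocytes and effector T cells, rose from 135, 92.0 and 79.6 CPM to 281, 213 and 223 CPM (log2 1.22 ± 0.19), a call lost when only the joint node groups were fitted, and Ccr10 rose by log2 2.52 ± 0.33. Ackr1, a decoy receptor, was at least 21.2-fold higher at under 2 CPM. Cxcr6, Ccr4 and Ccr8, found on effector and regulatory T cells, were also higher. Lower were Cxcr5, Ccr9 (log2 -1.53 ± 0.17), Ccr1 and the neutrophil receptors Cxcr1 and Cxcr2 (log2 -3.15 ± 0.48 and -3.03 ± 0.46), and the list had 2 lower calls without inflamed replicate 2 and 3 without steady-state replicate 2. Among 30 integrin and junction genes 12 were higher and none lower, among them Itga1 and Itga2, collagen-binding chains (log2 2.68 ± 0.28 and 2.66 ± 0.25), Vcam1 (14.9, 31.1 and 36.1 CPM against 1.29, 0.701 and 0.571 CPM, log2 4.99 ± 0.36), and F11r, the junctional adhesion molecule JAM-A (24.8, 59.8 and 56.1 CPM in inflamed replicates 1, 2 and 3 against 3.55, 3.14 and 2.50 CPM, log2 3.93 ± 0.31).

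Neutrophil granule genes were lower in the inflamed migrants. Of 16 neutrophil genes 11 were called lower and none higher (median log2 change -3.57). S100a8, a subunit of the alarmin calprotectin, measured 10.983, 7.23 and 19.9 CPM in inflamed replicates 1, 2 and 3 against 135, 218 and 265 CPM (log2 -4.02 ± 0.44 SE), and its partner S100a9 15.8, 11.8 and 30.0 CPM against 189.7, 309.8 and 413 CPM (log2 -3.98 ± 0.41). Ltf, lactoferrin, measured 7.76, 4.38 and 6.09 CPM against 73.0, 105 and 119 CPM (log2 -4.02 ± 0.45), and Ngp and Lcn2, other secondary granule genes, fell by 4.00 and 3.95 on the log2 scale. Steady-state replicate 1 held the least of S100a8, S100a9 and Ltf in its group, yet far more than any inflamed library. The defining surface marker Ly6g was at 0.269, 0.153 and 0.209 CPM in inflamed and 1.46, 2.49 and 3.98 CPM in steady-state libraries. The 16 genes summed to 83.8, 88.6 and 189 CPM in inflamed and 731, 1180.00 and 1366 CPM in steady-state libraries.

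Mast cell proteases stood out by their spread. Mcpt4 measured 6.72, 52.5 and 101 CPM in inflamed replicates 1, 2 and 3 against 0.0706, 0.363 and 0.476 CPM in steady state (log2 7.45 ± 0.99 SE), Tpsb2, tryptase, 3.83, 26.7 and 55.4 CPM against 0.0706, 0.156 and 0.309 CPM (log2 7.30 ± 0.91), and Cma1, chymase, 5.87, 28.5 and 52.4 CPM against 0.353, 0.493 and 0.690 CPM (log2 5.81 ± 0.66). Each was called higher, with inflamed replicate 1 the lowest and replicate 3 by far the highest of their group. Of the 10 mast cell and basophil genes 5 were higher and none lower, and the basophil protease Mcpt8 was at 0.157, 0.585 and 0.510 CPM against 0.871, 1.14 and 1.36 CPM (log2 -1.43 ± 0.43). Monocyte and macrophage genes gave 1 call of 16, Ccr2 (median log2 change 0.26). Csf1r, the macrophage growth factor receptor, stood at 22.3, 46.8 and 54.1 CPM against 61.2, 52.2 and 42.5 CPM (log2 -0.34 ± 0.29), and the macrophage lysozyme Lyz2 at 99.5, 210.3 and 230.4 CPM against 459, 317 and 331 CPM (log2 -1.04 ± 0.29, adjusted p = 0.00968 by edgeR). Timd4 and Vcam1 were the 2 genes called higher among 5 of sinus macrophages, while Siglec1 stood at 2.15, 4.51 and 3.71 CPM against 5.91, 4.65 and 1.81 CPM. Of 9 plasmacytoid dendritic cell genes 2 were higher, Siglech (18.5, 18.3 and 25.7 CPM against 10.4, 8.12 and 6.78 CPM, log2 1.31 ± 0.19) and Runx2 (log2 2.51 ± 0.14), and 3 lower, Ly6d (log2 -2.42 ± 0.18), Ccr9 and Pacsin1. Over all genes, 12.5% were called higher and 3.47% lower, so a few calls in lists this short say little about the lists. Haemoglobin genes, markers of red cells, were highest in inflamed replicate 1 (Hbb-bs at 16.8, 1.71 and 1.34 CPM against 0.518, 0.908 and 1.43 CPM) and were not called.

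Type I interferon response genes were lower more often than higher, 9 against 1 of 30 tested (median log2 change -0.73). Oas2, which senses double-stranded RNA, measured 7.87, 8.43 and 12.027 CPM in inflamed replicates 1, 2 and 3 against 73.4, 78.9 and 61.0 CPM, 7.53-fold lower (log2 -2.91 ± 0.19 SE). Oasl1 (log2 -1.96 ± 0.18), Mx2 (log2 -1.75 ± 0.20) and Ifi44 (log2 -1.97 ± 0.30) were lower too, and Ifit3, an inhibitor of viral RNA translation, measured 9.12, 9.47 and 6.58 CPM against 26.7, 24.0 and 27.4 CPM (log2 -1.63 ± 0.18). The single gene called higher was Mx1, with 1 more without inflamed replicate 1, and Isg15, an induced ubiquitin-like protein, stood at 14.2, 23.6 and 23.9 CPM against 14.2, 13.5 and 17.4 CPM (log2 0.45 ± 0.19). Guanylate-binding proteins, which interferon-γ induces, gave 5 higher and 1 lower of 17 interferon-induced GTPases: Gbp2 measured 163, 265 and 244 CPM against 70.5, 59.8 and 69.9 CPM (log2 1.747 ± 0.17) and Gbp5 102, 208 and 199 CPM against 42.6, 37.9 and 35.038 CPM (log2 2.14 ± 0.22). Without steady-state replicate 2 or 3, the higher calls numbered 3.

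The interferon-stimulated response element, searched on both strands as the letters GAAA, any 2 bases and GAAA again, was present in the window of 12 of 21 tested type I interferon genes (57.1%), of 3 of the 6 called lower that had a window, and of 3.95% of 11159 autosomal genes tested (4.02% of all 25748 with a window). No match overlapped a CCAAT match in this list. Windows of 2 genes of the Ifit cluster on chromosome 19 that fell are shown 5′ to 3′, Ifit1 (chr19:34640639-34640938, plus strand, GRCm38.p6; log2 -1.52 ± 0.17) and Ifit3 (chr19:34583279-34583578, plus strand), with the element, here as its reverse complement, in capitals.
Ifit1: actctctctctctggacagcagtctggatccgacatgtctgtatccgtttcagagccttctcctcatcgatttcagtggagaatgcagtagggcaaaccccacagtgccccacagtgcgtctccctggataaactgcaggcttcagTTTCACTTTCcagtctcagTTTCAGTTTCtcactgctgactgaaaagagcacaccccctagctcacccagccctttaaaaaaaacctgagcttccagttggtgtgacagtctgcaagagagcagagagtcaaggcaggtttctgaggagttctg
Ifit3: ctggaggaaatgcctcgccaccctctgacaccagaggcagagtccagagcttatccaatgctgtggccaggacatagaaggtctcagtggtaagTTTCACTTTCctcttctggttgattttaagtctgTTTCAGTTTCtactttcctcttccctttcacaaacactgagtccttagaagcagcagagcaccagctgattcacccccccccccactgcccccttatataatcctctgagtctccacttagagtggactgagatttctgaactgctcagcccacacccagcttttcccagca
Both hold 2 elements. An NF-κB element searched as GGGANTTCC was in 1 of 10 mature migratory dendritic cell genes with a window (Tnfrsf9) and in 2.65% of autosomal genes tested.

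Housekeeping programmes had shares called higher near or below the 12.5% of all genes. None of 52 ribosomal protein genes and none of 33 oxidative phosphorylation genes was called by edgeR or by DESeq2 (16 and 14 had an unadjusted p under 0.05 by edgeR), with median log2 changes of -0.26 and 0.23. Of 22 glycolysis genes 3 were higher, including Gapdh (515, 529 and 509.8 CPM in inflamed replicates 1, 2 and 3 against 195, 222 and 276 CPM, log2 1.16 ± 0.14) and Tpi1 (log2 1.37 ± 0.14), and 1, Pdk1, was lower. Of 23 MHC class I genes 2 were higher, Psme2, a proteasome activator subunit (log2 1.41 ± 0.17), and Tapbpl (log2 1.27 ± 0.15). Of 24 immediate early and heat shock genes, read as a sign of handling, 1 was called, Egr3, which was lower (log2 -1.32 ± 0.17). Of 16 Toll-like receptor and adaptor genes 2 were higher, the 12.5% found among all genes, Tlr11 (log2 4.85 ± 0.31) and the TLR4 cofactor Ly96 (log2 1.81 ± 0.22), and 3 were lower, against 3.47% of all genes, including Tlr4 (log2 -2.09 ± 0.27) and Unc93b1, which escorts endosomal Toll-like receptors (log2 -1.28 ± 0.14).

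The skin-draining node, with 3 inflamed and 3 steady-state libraries of its own and none shared, was used to ask where the joint node change differed. Its inflamed Kaede mice were given the same cells and immunisation but HAO in the ear pinna, and its steady-state libraries are titled "Naive". By a test of the difference itself in the same edgeR fit, the joint change was above the skin change for 30 genes (0.181% of those tested) and below it for 117 (0.708%). Siglech went opposite ways: in the skin node it was at 2.39, 3.66 and 3.10 CPM in inflamed and 20.3, 17.0 and 20.6 CPM in steady-state libraries, log2 -2.66, against 1.31 in the joint node (difference 3.97 ± 0.29 SE, adjusted p = 1.22e-05 by edgeR). B cell genes fell less in the joint node: Fcer2a changed by log2 -2.43 there and -5.29 in skin (difference 2.86 ± 0.30), and the difference was called for 4 of the 16 genes of the list, each with the larger fall in the skin node. Several myeloid genes were called higher in the skin node and not in the joint node. Ifitm1, an interferon-induced membrane protein, stood at log2 -0.00 in the joint and 5.90 in the skin node (difference -5.90 ± 0.37), and the Fc receptor Fcgr3 at log2 -0.85 in the joint node against 2.77 in skin (difference -3.62 ± 0.25). Of 16 monocyte and macrophage genes 5 differed, all with the skin change higher, and so did 2 of the 16 neutrophil genes. F11r rose in both nodes, by 3.93 and 7.94 (difference -4.01 ± 0.50), a difference that was not called when any steady-state joint node library was left out. In the skin node all 3 steady-state and none of the inflamed libraries carried Y-linked reads, so sex and condition cannot be told apart there. With Y-linked reads as a covariate the genes called above and below numbered 7 and 49. That covariate could be estimated from the joint node libraries only, so it cannot separate the 2 in the skin node. Depth also went with condition in the skin node. Its inflamed libraries held 19239531 to 22378238 counts assigned to genes, and its steady-state libraries 28577566 to 40055171. The steady-state groups differ in title as well, "PBS" in the joint and "Naive" in the skin node. What part depth and the choice of steady-state group had in the differences was not tested. In all, 147 genes differed, and 95, 82, 70 and 63 did without inflamed replicate 2 and steady-state replicates 1, 2 and 3 of the joint node. No skin node library was left out.

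**Figure D5:**
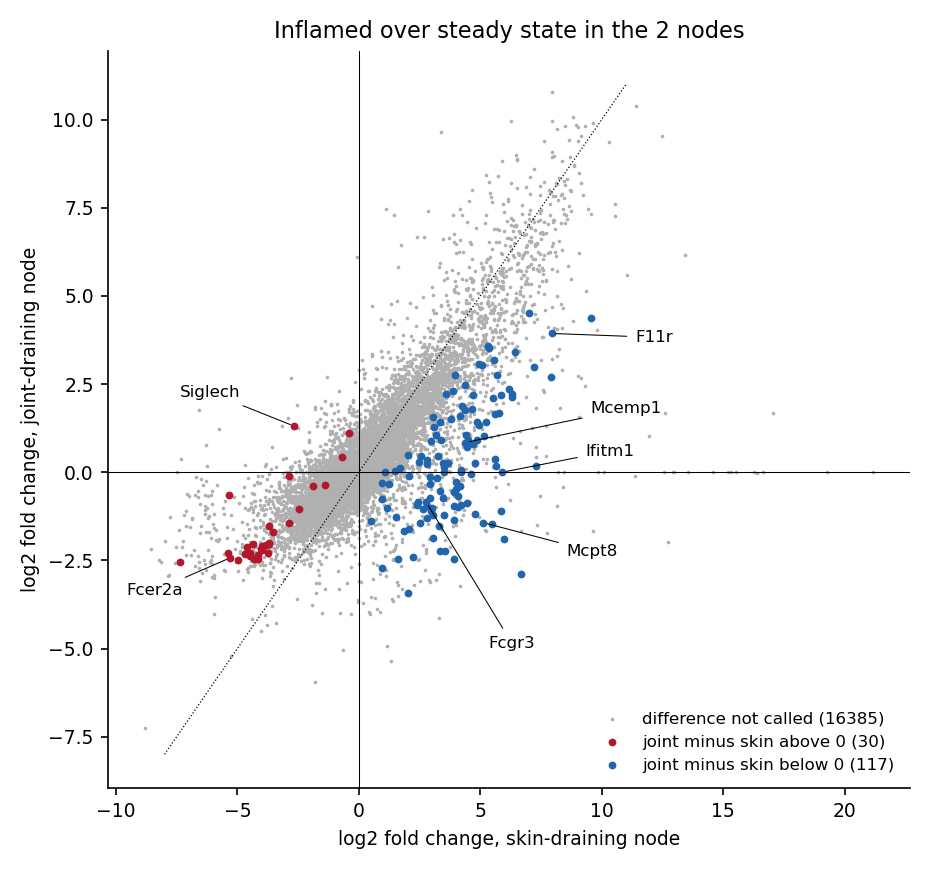
Log2 fold change (inflamed over steady state) of each autosomal gene in the joint-draining node (y axis) against the skin-draining node (x axis), with the dotted line marking equal change. Red dots are the 30 genes whose joint change was above the skin change, blue dots the 117 below it, and Siglech is higher in the joint node and lower in the skin node.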

How the data were processed

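RNA of CD45+ cells sorted from joint-draining nodes was measured in 6 libraries (3 inflamed, 3 steady state, the gate of the latter not being settled by the labels), read beside 6 of the skin-draining node. The authors deposited 1 table of raw counts per gene for the series. Per the methods, reads (TruSeq, paired, HiSeq) were trimmed with Trim Galore, aligned to mm10 with TopHat2 and counted with HTSeq on Ensembl annotation under its default settings, which count reads on the annotated strand. Whether the library kit kept strand is not given in the sources used here, so overlapping genes are uncertain. The submitters' processing notes also name Cufflinks and DESeq2. Gene symbols and coordinates were taken from GENCODE M21 (GRCm38).

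From the counts, genes were filtered with edgeR's filterByExpr (minimum count 10), scaled by TMM and fitted by group over the 12 lymph node libraries with edgeR 4.0.16 (quasi-likelihood test, R 4.3.3). P-values were adjusted over all 17107 genes tested and 16532 autosomal ones are reported. Calls needed both an adjusted p under 0.001 and a log2 fold change beyond 1 in size. SE was the log2 fold change over the square root of F. The procedure was tested on simulated data in which only the inflamed joint node libraries were changed. Recovery of those changes was required for the joint node comparison and not for the joint minus skin difference.

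Genes were named as the 12 smallest p in each direction, the 6 largest changes in each direction at 10 CPM or more, up to 4 called members per list, the first 3 genes of each cell type list, and the 3 smallest p of each direction of the joint minus skin difference. Other genes, among them Ptprc, Irf8, Ccnb2, Cdk1, Mki67, Ifit1, Ifit3, Isg15, Mx1, Il12a, Il6ra, H2-Aa, Cd74, Xbp1, Spib, Lyz2, Cd274, Pdcd1lg2 and the immunoglobulin genes, were chosen after their values were seen. Some genes are not reported here. The lists and comparisons were chosen with earlier results of these data known.

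No source says whether the libraries of a group came from separate days, so p-values measure the spread between pools only. Counting limits cover counting error only. Alternatives were DESeq2 1.42.0, other scaling, filters, thresholds and sample sets, the replicate block, and leaving out each joint node library. No skin node library was left out.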

Additional observations from a re-analysis of the deposited data

Results flagged for a closer look

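Results are given here because the inflamed over steady-state change differed between the joint-draining and the skin-draining node by a test of the difference itself (edgeR quasi-likelihood test with Benjamini-Hochberg adjustment). Groups of 3 libraries were not searched for single outlying samples. In all, 147 autosomal genes differed, and those among them that the naming rule picked out follow. The joint change minus the skin change was positive for Siglech (3.97, adjusted p = 1.22e-05 by edgeR), for the B cell surface gene Fcer2a (2.86), for Ffar1 (2.39), Ccr9 (2.19) and H2-Ob (1.78), and for Gm15675 (1.71), Ralgps2 (1.45) and Kmo (1.42), on the log2 scale. It was negative for the basophil protease Mcpt8 (-6.55), Ifitm1 (-5.90), F11r (-4.01), Fcgr3 (-3.62), Mcemp1 (-3.55), Csf1r (-3.26), S100a4 (-1.83) and Lxn (-1.18).

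Of these genes, Ifitm1, Mcemp1, Fcgr3, S100a4 and Ffar1 were called in every alternative that gave a value. Siglech, Fcer2a and Kmo were not called with all 18 libraries fitted (adjusted p = 0.00339, 0.00182 and 0.0408 by edgeR), and Kmo also not with the replicate block (0.00156). F11r was not called with the replicate block (0.00178), without joint node steady-state replicate 1, 2 or 3 (0.00166, 0.00169 and 0.00147) or without the joint node libraries with Y-linked reads (0.00175). With Y-linked reads as a covariate these 4 were called, and Mcpt8, Csf1r, Lxn, Ralgps2, H2-Ob, Ccr9 and Gm15675 were not (Mcpt8 adjusted p = 0.00387, Csf1r 0.0018, Lxn 0.007, Ralgps2 0.00122, H2-Ob 0.00118, Ccr9 0.00149 and Gm15675 0.00132, by edgeR). In the skin node this covariate matched condition, so its effect was estimated from the joint node libraries only. Keeping or losing a call under it therefore cannot separate sex from condition in the skin node. Leaving out joint node steady-state replicate 1, 2 or 3 also ended the call for Mcpt8 (adjusted p = 0.00118, 0.00177 and 0.00202 by edgeR), Csf1r (0.00174, 0.00189 and 0.00147), Lxn (0.00282, 0.00272 and 0.00263), Ralgps2 (0.00127, 0.00137 and 0.00147) and H2-Ob (0.00164, 0.00169 and 0.00153), and leaving out replicate 3 that for Ccr9 (0.00105). Without inflamed replicate 2, Csf1r (0.00158) and Lxn (0.00297) were not called. With all 18 libraries Mcpt8, H2-Ob, Ccr9, Lxn and Gm15675 were also not called (0.00997, 0.00274, 0.00289, 0.00117 and 0.0147). The replicate block also ended the calls for Mcpt8, Csf1r, Lxn, Ralgps2 and H2-Ob (adjusted p = 0.001785, 0.003528, 0.004191, 0.002657 and 0.002879 by edgeR). Without the joint node libraries with Y-linked reads, Mcpt8, Csf1r, Lxn and H2-Ob were not called (0.001815, 0.004118, 0.00766 and 0.001211). Lxn was also not called with autosomal genes only (0.00101).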

How the results depend on the processing

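Of 3626 alternative values for 214 named genes, 3467 stayed on their side of the thresholds. Another 141 lost the call (38 genes), 18 gained it (12 genes), and 0 changed direction with a call in either fit. Changes of direction in genes called in neither fit were not counted. In the joint node, 2639 genes were called (2065 higher, 574 lower). At an adjusted p under 0.05 these were 4017, with 1208 lower, and without a fold threshold 1191 were lower. Leaving out each joint node library gave 2014 to 2666 in all, 1614 to 2093 higher and 394 to 573 lower. Without the 2 joint node libraries with Y-linked reads, an alternative added after the data were seen, 1702 were called, 315 of them lower.

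The joint minus skin difference (147 genes, 30 above and 117 below 0) was less stable. It was called for 1026 genes (389 and 637) at an adjusted p under 0.05, for 583 (179 and 404) by the DESeq2 Wald test and for 622 (163 and 459) without a filter on low counts, and with all 18 libraries fitted 4 lay above 0. With presence of Y-linked reads as a covariate, also added later, 56 genes were called (7 and 49), and without the joint libraries with Y-linked reads 48 (13 and 35). The covariate cannot separate sex from condition in the skin node. Leaving out each joint node library gave 63 to 205 (12 to 40 above, 50 to 165 below). No skin node library was left out, so how the difference depends on single skin libraries was not tested. With the replicate block the joint node count was 2139 (1702 higher, 437 lower) and the difference 81 (8 and 73). Deviations of same-numbered joint node libraries from their group means correlated at -0.164, -0.123 and -0.149, so the numbers were not taken to pair them. Those of inflamed replicate 1 with steady-state replicate 3, 2 with 1 and 3 with 2 correlated at 0.215, 0.227 and 0.213, and the pair at 0.227 holds both libraries with Y-linked reads. Except where an alternative uses another threshold or fewer libraries, the cause of a shift was not tested. Of 1900 list counts, 139 moved by more than 1.5 times, mostly in lists with few calls. The count limit of 3 reads leaves 213 of the higher genes with a fold that is only a bound.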

Other observations

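Some genes of lists not described above were also called in the joint node comparison. Over all genes tested, 12.5% were called higher and 3.47% lower, so a few calls in a short list say little about that list. Of 9 germinal centre B cell genes 2 were higher, Fas (25.7, 37.8 and 40.3 CPM in inflamed replicates 1, 2 and 3 against 15.5, 12.8 and 14.9 CPM, log2 1.26 ± 0.15 SE) and S1pr2 (log2 1.48 ± 0.14). Eosinophil genes gave 2 higher, Prg2 (log2 3.18 ± 0.45) and Ccr3 (log2 2.00 ± 0.30), and 1 lower, Il5ra (log2 -2.19 ± 0.28), of 6 tested, calls of which none remained when all 18 libraries were fitted. The defining Epx was at 0.247, 0.280 and 0.139 CPM against 0.0942, 0.260 and 0.238 CPM.

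Of 16 TNF superfamily ligands 7 were higher, among them Tnfsf12 (log2 2.36 ± 0.37), and 4 without steady-state replicate 2, and of 22 cholesterol synthesis genes 2, a share below the 12.5% of all genes called higher, Idi1 (log2 1.4995 ± 0.23) and Pmvk (log2 1.22 ± 0.17). Of the TNF ligands called, Cd70, Tnfsf4, Tnfsf9 and Tnfsf14 were also counted with the costimulatory ligands. Of 19 lysosomal genes 5 were higher (3 without inflamed replicate 2 or steady-state replicate 1 or 2), namely Cd63, Lamp1 (log2 1.65 ± 0.18), Ctsz (log2 1.499 ± 0.21), Ctsh (log2 1.23 ± 0.21) and Cd9. Among 25 genes listed for the actin cytoskeleton 6 were higher, including Marcksl1 (log2 3.24 ± 0.29) and Lsp1 (log2 2.01 ± 0.18), and 1 was lower, Wdfy4, which acts in cross-presentation. Of 8 SOCS genes Socs2 and Cish (log2 1.49 ± 0.24) were higher. Endothelial markers gave 1 higher, Kdr (log2 2.74 ± 0.28), and 1 lower, Pecam1 (111, 85.1 and 87.8 CPM against 238, 221 and 228 CPM), of 6. Keratinocyte markers gave 1 higher, Perp (log2 2.62 ± 0.35), and 1 lower, Sfn (log2 -1.06 ± 0.18), of 4. Platelet (4 tested) and erythroid (5 tested) markers were not called by edgeR or DESeq2, with 2 and 3 at an unadjusted p under 0.05 by edgeR; at an adjusted p below 0.05 with the same fold threshold the counts were 2 and 3.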
